A study of Homo sapiens with 16 samples.

Results

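ATF3 binding sites were compared between A375 cells given TGFB1 and A375 cells given vehicle. The members are all ATF3 peaks on chromosomes 1 to 22 and X of the TGFB1 list and of the vehicle list, with identical intervals counted once. They come to 62483 sites with TGFB1 and 48848 sites in vehicle, 111331 of the 396690 peaks in the 10 peak lists of the series. A site was called shared where it overlapped the other list by at least 1 bp, and TGFB1-only or vehicle-only otherwise.

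A375 is an established human melanoma line. Per the labels, TGFB1 cells were starved for 2 h and then held with 10 ng/mL of recombinant TGFB1, a TGF-beta cytokine, for 2 h, while vehicle cells were starved alike and held for the same time in 4 mM HCl with 1 mg/mL BSA. Chromatin sheared to 200 to 300 bp was precipitated with 10 µg of antibody, in 1 library per antibody and treatment (ATF3, JUNB, SMAD2/3, MITF and H3K27ac). The ATF3 and JUNB libraries carried a common date, other than those of the remaining antibodies. With 1 library per side no test was possible, and no difference below has a replicate check. Percentages are given with 95% Wilson intervals, which cover counting error only. In the vehicle H3K27ac list, 6 of 10 melanocyte lineage genes had a peak within 1 kb of their start (SOX10, MITF, PMEL, S100B, PAX3 and EDNRB, but not MLANA, TYR, DCT or TYRP1), beside 64.8% of all 19970 protein-coding genes. None of 3 endothelial and 3 hepatocyte genes, 1 of 3 keratinocyte genes (KRT14) and 1 of 3 T cell genes (CD3E) had one. These counts do not establish the cell type, which is the labels'.

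ATF3 is a stress-inducible transcription factor of the basic leucine zipper class, in the ATF/CREB family. It binds DNA as a dimer, with itself or with JUN proteins, C/EBP proteins or relatives, and the partner sets whether the dimer prefers the cyclic AMP response element (CRE), the AP-1 element or a composite of ATF and C/EBP half-sites. Its gene is a target of ATF4 in the integrated stress response, the programme that cells switch on when amino acids run short or unfolded proteins build up, and it is also induced by TGF-beta in several cell types.

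ATF and C/EBP motifs under the ATF3 summits are shown in promoters with a site in both lists and in promoters with a site called with TGFB1 alone. Sequence was searched only in promoter windows, which hold the summits of a small part of all sites. For each of 4 motifs the TGFB1-only and the shared promoter of highest -log10 p (the authors' value for the peak) with the motif within 25 bp of the TGFB1 summit are given. The stretches run up to 60 bases either side of the summit and end at the gene start or, in GZF1 and F3, at the far edge of the window, 250 bases before the start (RefSeq, GRCh38.p14, read along the gene's strand). Capitals mark matches, on either strand, to CRE (TGACGTCA), to the composite C/EBP-CRE (TGACGCAA, which joins a CRE half-site to a C/EBP half-site), to C/EBP-ATF (TGATGNAAT) and to AP-1 (TGACTCA).
ZMAT1, TGFB1-only, - strand, chrX:101932128-101932248: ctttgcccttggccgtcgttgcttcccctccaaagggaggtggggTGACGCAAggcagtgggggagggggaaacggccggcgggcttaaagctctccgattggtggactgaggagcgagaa
GZF1, shared, + strand, chr20:23361932-23362039: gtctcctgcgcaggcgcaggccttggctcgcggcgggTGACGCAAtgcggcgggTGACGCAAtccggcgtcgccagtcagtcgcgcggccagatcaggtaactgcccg
ZNF593, TGFB1-only, + strand, chr1:26169779-26169899: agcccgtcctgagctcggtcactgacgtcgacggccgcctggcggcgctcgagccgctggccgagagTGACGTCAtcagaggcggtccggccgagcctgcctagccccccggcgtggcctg
ZBTB38, shared, + strand, chr3:141368411-141368503: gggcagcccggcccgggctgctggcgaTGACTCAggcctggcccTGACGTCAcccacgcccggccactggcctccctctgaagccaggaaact
TRIM42, TGFB1-only, + strand, chr3:140677832-140677952: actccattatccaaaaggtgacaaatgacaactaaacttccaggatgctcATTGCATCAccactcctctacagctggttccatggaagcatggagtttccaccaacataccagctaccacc
GARS1, shared, + strand, chr7:30594771-30594877: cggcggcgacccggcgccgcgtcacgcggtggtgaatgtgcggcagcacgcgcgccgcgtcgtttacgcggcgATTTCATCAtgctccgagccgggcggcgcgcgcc
ADGRG1, TGFB1-only, + strand, chr16:57628451-57628571: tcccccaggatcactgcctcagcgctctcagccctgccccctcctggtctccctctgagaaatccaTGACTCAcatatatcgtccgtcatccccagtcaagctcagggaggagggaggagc
F3, shared, - strand, chr1:94541912-94542009: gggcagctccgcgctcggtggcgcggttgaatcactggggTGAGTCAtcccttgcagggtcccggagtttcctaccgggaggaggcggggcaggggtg
The shared GZF1 promoter held 2 copies of C/EBP-CRE. Its ATF3 summit had 295 reads with TGFB1 and 165 reads in vehicle. Reads here and below are not scaled for depth unless called scaled, and the TGFB1 library was the deeper. In ZBTB38, a CRE and an AP-1 match stood side by side, under 126 reads with TGFB1 and 20 reads in vehicle. GARS1, which encodes glycyl-tRNA synthetase, had 258 reads with TGFB1 and 92 reads in vehicle, and F3, which encodes tissue factor, had 54 reads with TGFB1 and 10 reads in vehicle. The TGFB1-only summits had 68 reads at ZMAT1, 77 at ZNF593, 32 at TRIM42 and 100 at ADGRG1, with no vehicle peak on them.

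The libraries differed in depth, and the vehicle list held many calls where no gene is annotated. The lowest background in the list was 1.59 reads with TGFB1 and 0.352 reads in vehicle, a ratio of 4.53. In the longest stretch of each chromosome without any annotated gene lay 1552 TGFB1 sites, 2.48% of that list, and 19727 vehicle sites, 40.4% of that list. Of these vehicle sites 18603 overlapped no TGFB1 site, and none of those 18603 lay on vehicle H3K27ac. JUNB, precipitated on the same date, had 348 such sites with TGFB1 and 438 in vehicle. All sites in these stretches are left out below, which leaves 60931 TGFB1 sites and 29121 vehicle sites, a ratio of 2.09. By chromosome this ratio ran from 1.03 on chromosome 21 and 1.20 on chromosome 22 to 2.51 on chromosome 6. The longest stretch on chromosomes 14 and 21 held no site of either list and that on chromosome 22 held 2 TGFB1 sites and 4 vehicle sites, so that almost nothing was taken out there.

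Most TGFB1 sites were absent from the vehicle list, but nearly all of the strong ones were in it. Of the 60931 TGFB1 sites, 12778 were shared, or 20.97% (20.6 to 21.3%), and 48153 were TGFB1-only. Read from the vehicle list, 12834 of 29121 sites were shared, or 44.1% (43.5 to 44.6%), and 16287 were vehicle-only. The median summit had 16 reads at TGFB1-only sites and 41 reads at shared sites of the TGFB1 list. In the vehicle list it had 7 reads at vehicle-only sites and 10 reads at shared sites. Where a site was shared, its summits in both lists lay a median of 25 bp apart, and 75.3% lay within 50 bp. By -log10 p, the 100 strongest sites of either list were all shared. Ranks 1001 to 5000 were shared at 86.4% in the TGFB1 list and at 90.4% in the vehicle list, and the lowest ranks, from 20001 on, at 7.22% in the TGFB1 list and 19.4% in the vehicle list.

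The share called in vehicle climbed with the reads that vehicle depth would leave. TGFB1 reads were multiplied by 0.221, the ratio of the lowest backgrounds, to give scaled reads. Of the 31861 sites with fewer than 4 scaled reads 4.59% (4.37 to 4.83%) were shared, and of the 19073 sites with 4 to 8 scaled reads 21.6% (21.0 to 22.2%) were. The share was 61.5% (60.4 to 62.6%) of 7010 sites from 8 to 16, 95.6% (94.6 to 96.3%) of 2206 sites from 16 to 32, and 99.9% (99.3 to 99.98%) of 781 sites at 32 or more. TGFB1-only sites thus numbered 30397 below 4 scaled reads and 14958 from 4 to 8, while 2699 had 8 to 16, 98 had 16 to 32 and 1 had more. Depth and treatment cannot be told apart for TGFB1-only calls, least of all below 8 scaled reads. JUNB, whose backgrounds stood in a ratio of 1.39, had 41.7% of its TGFB1 sites shared.

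**Figure D1:**
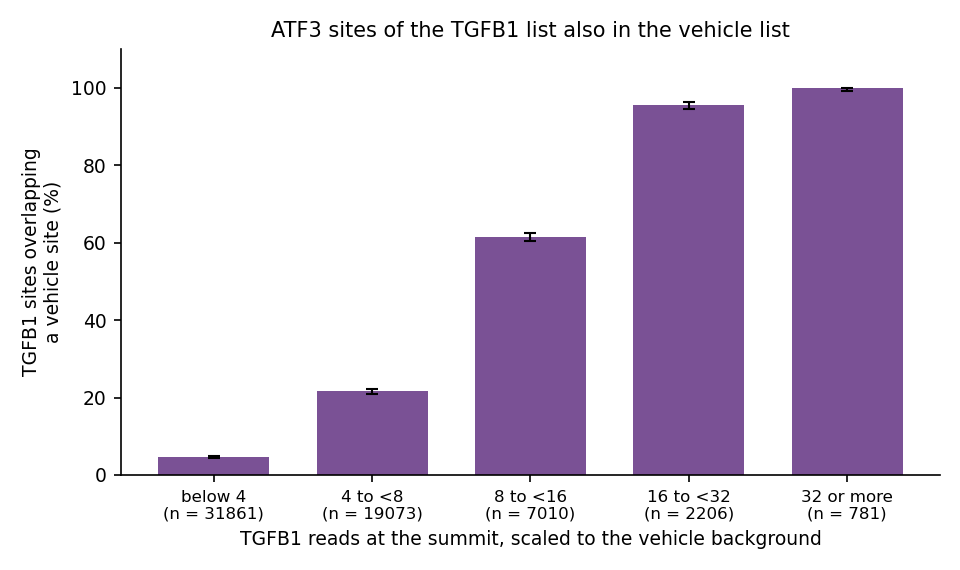
Percent of TGFB1 ATF3 sites outside gene-free stretches that overlapped a vehicle ATF3 site (y axis), in 5 classes of TGFB1 summit reads scaled to the vehicle background (x axis). Bars are percentages, error bars 95% Wilson intervals over sites; the share runs from 4.59% in the lowest class to 99.9% in the highest.

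Over all reads, TGFB1-only ATF3 sites lay on JUNB peaks somewhat less often than shared sites did, and vehicle-only sites seldom did. At like reads, given further below, TGFB1-only sites were not the lower of the 2. JUNB, a dimer partner of ATF3 in AP-1, was called with TGFB1 at 37.5% (37.1 to 38.0%) of TGFB1-only sites, at 45.2% (44.3 to 46.1%) of shared sites and at 4.08% (3.78 to 4.39%) of vehicle-only sites. H3K27ac, the histone mark of active promoters and enhancers, was called with TGFB1 at 25.4% of TGFB1-only sites, 35.6% of shared sites and 9.12% of vehicle-only sites. SMAD2/3, the receptor-activated factors of the TGF-beta pathway, were called with TGFB1 at 7.02% of TGFB1-only sites, 12.9% of shared sites and 1.33% of vehicle-only sites. MITF, the pigment lineage factor, was called at 2.40% of TGFB1-only sites, 4.91% of shared sites and 0.553% of vehicle-only sites. None of JUNB, SMAD2/3 and H3K27ac was called at 54.4% of TGFB1-only sites, at 45.6% of shared sites and at 88.8% of vehicle-only sites. All 3 were called at 5.18% of TGFB1-only sites, 10.3% of shared sites and 0.546% of vehicle-only sites. Where SMAD2/3 was present, JUNB was too at 92.1% (91.1 to 92.9%) of 3378 TGFB1-only sites and at 93.9% (92.7 to 94.98%) of 1645 shared sites, against 51.2% (44.5 to 57.7%) of 217 vehicle-only sites. JUNB summits lay a median of 38 bp from ATF3 summits at TGFB1-only sites and 41 bp at shared sites, and SMAD2/3 summits 59 bp at TGFB1-only sites and 62 bp at shared sites.

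**Figure D2:**
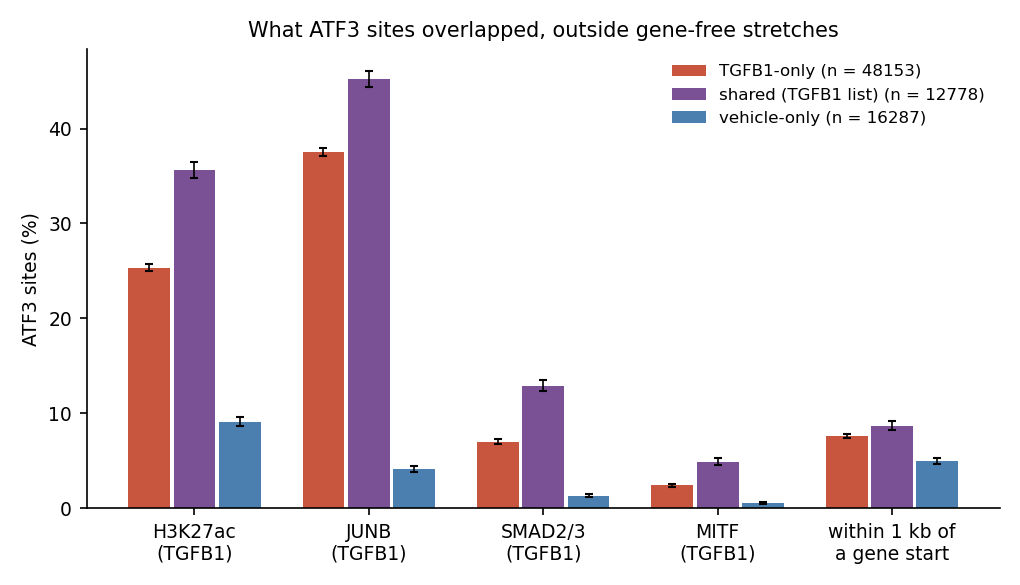
Percent of ATF3 sites outside gene-free stretches (y axis) that overlapped a TGFB1 peak of 4 other antibodies or had the summit within 1 kb of a protein-coding gene start (x axis), by class of site. Bars are percentages with 95% Wilson intervals; vehicle-only sites are the lowest of the 3 classes in every column, with 4.08% on JUNB against 37.5% of TGFB1-only sites.

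Stronger sites overlapped the other lists more often, so the classes were also set side by side at like reads. Between 8 and 16 scaled reads, TGFB1-only sites lay on TGFB1 JUNB peaks at 55.1% (53.2 to 57.0%) of 2699, against 45.6% (44.1 to 47.0%) of 4311 shared sites. On vehicle JUNB peaks the shares were 41.9% of TGFB1-only sites and 35.8% of shared sites. SMAD2/3 with TGFB1 was at 16.5% (15.2 to 17.97%) of TGFB1-only sites and at 13.1% (12.2 to 14.2%) of shared sites in this class. The neighbouring classes ran the other way, with intervals that overlap. There SMAD2/3 was at 4.54% of TGFB1-only and 5.67% of shared sites below 4 scaled reads, at 10.3% of TGFB1-only and 11.1% of shared sites from 4 to 8, and at 15.3% of TGFB1-only and 16.9% of shared sites from 16 to 32. H3K27ac with TGFB1 did not separate the classes beyond counting error between 8 and 16 scaled reads. It lay there on 35.9% (34.2 to 37.8%) of TGFB1-only sites and 34.6% (33.2 to 36.1%) of shared sites. Below 4 scaled reads it was rarer at TGFB1-only sites, with 21.9% (21.4 to 22.3%) beside 28.6% (26.3 to 30.9%) at shared ones. The intervals overlapped in the 4 to 8 class (30.4% TGFB1-only, 31.0% shared) and the 16 to 32 class (41.8% TGFB1-only, 43.9% shared). Gene starts held 5.78% (4.96 to 6.72%) of TGFB1-only summits and 7.79% (7.03 to 8.63%) of shared summits in the 8 to 16 class. At 16 to 32 scaled reads the 98 TGFB1-only sites had JUNB at 62.2% (52.4 to 71.2%), against 59.6% (57.5 to 61.7%) of 2108 shared sites, a difference within counting error.

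Gene starts took a small share of all classes. Within 1 kb of a protein-coding start lay 7.60% (7.37 to 7.84%) of TGFB1-only summits, 8.70% (8.23 to 9.20%) of shared summits and 4.93% (4.61 to 5.27%) of vehicle-only summits. Gene bodies held 42.5% of TGFB1-only summits, 41.0% of shared summits and 37.5% of vehicle-only summits. In genes, 3376 starts had TGFB1-only summits alone, 960 had shared summits alone, 233 had both, and 616 had a vehicle-only summit with no TGFB1-list summit. Of all 19970 protein-coding genes, 18.1% had a TGFB1-only summit at a start, 5.97% a shared summit and 4.06% a vehicle-only summit. Where vehicle H3K27ac also lay at the start, 25.5% of 12931 genes had a TGFB1-only summit and 8.53% a shared one.

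Genes of the integrated stress response carried ATF3 at their starts in both treatments. A shared summit lay at the start of 18 of 28 genes, or 64.3%, beside 5.97% of all genes and 8.53% of those with acetylated starts. TGFB1-only summits were at 7 of the 28 starts, beside 18.1% of all genes and 25.5% of those with acetylated starts. A vehicle-only summit was at 1, beside 4.06% of all genes. The shared summits had a median of 128.5 reads with TGFB1 (23 to 269) and 31.5 reads in vehicle (12 to 126). Those medians are not at like depth and do not show a gain with TGFB1. Over all shared sites at gene starts the TGFB1 median was 41 reads. Counted within 10 kb of the gene, a shared summit lay at 24 of the 28, beside 30.7% of all genes, a TGFB1-only one at 22, beside 63.6%, and a vehicle-only one at 8, beside 31.5%. JUNB with TGFB1 lay on 11 of the 18, beside 53.6% of all shared sites at gene starts, and SMAD2/3 on 2, beside 16.9%.

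Of these genes, those with the most reads at their starts act in protein quality control, amino acid supply and the feedback of the response. Sites away from starts, such as the strongest one at ATF3 given below, are not ranked here. HERPUD1, which serves the degradation of misfolded proteins from the endoplasmic reticulum, had 269 reads with TGFB1 and 126 reads in vehicle (chromosome 16, 56931524 to 56932529). TRIB3, a pseudokinase that restrains ATF4, had 265 reads with TGFB1 and 85 in vehicle, and CHAC1, which degrades glutathione, had 258 with TGFB1 and 125 in vehicle. These 3 genes were high in both lists. SLC7A11, the cystine importer, had 263 reads with TGFB1 and 95 reads in vehicle at a summit 0.083 kb from its start (chromosome 4, 138241711 to 138242660, fold enrichment 90.0 with TGFB1). The serine and glycine enzymes SHMT2 and PHGDH stood at 223 reads with TGFB1 against 76 in vehicle (SHMT2) and 146 reads with TGFB1 against 33 in vehicle (PHGDH). ASNS, asparagine synthetase, had 128 reads with TGFB1 and 26 reads in vehicle. PSAT1, which acts after PHGDH in serine synthesis, was the lowest of the shared genes with 23 reads with TGFB1 and 12 in vehicle. In scaled reads, the TGFB1 summits had 59.3 at HERPUD1, 58.5 at TRIB3, 56.9 at CHAC1 and 58.0 at SLC7A11. SHMT2, PHGDH and PSAT1 had 49.2, 32.2 and 5.07. All of these were below the vehicle reads, while ASNS, with 28.2 scaled reads, was above its 26 in vehicle.

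By their start summits, the regulators of the response fell into both classes. DDIT3, which encodes the C/EBP relative CHOP, had 125 reads with TGFB1 and 66 reads in vehicle at 0.339 kb from its start. XBP1, a factor of the unfolded protein response, had 192 reads with TGFB1 and 61 in vehicle. NUPR1, a stress-induced chromatin protein, had 67 with TGFB1 and 17 in vehicle. SESN2, PPP1R15A and ATF5 had TGFB1-only summits at their starts, with 35, 22 and 14 reads. Within 10 kb SESN2 and PPP1R15A also had a shared site, with a -log10 p of 118 and 77.0 with TGFB1. Their highest TGFB1-only sites had 33.4 and 14.8. ATF5 had no shared site. PPP1R15A encodes the phosphatase subunit that ends the response. DDIT4, an inhibitor of mTORC1, had a vehicle summit of 37 reads within 1 kb, while the TGFB1 peak it overlapped had its summit farther off.

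**Figure D3:**
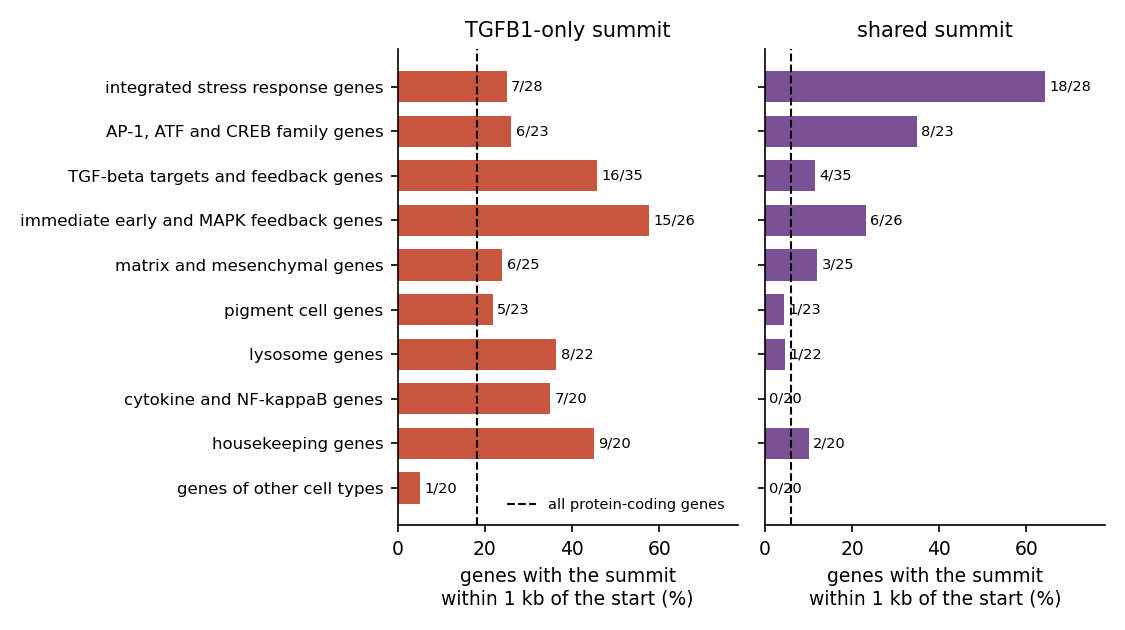
Percent of the genes of each list (rows) with a TGFB1-only ATF3 summit (left panel) or a shared ATF3 summit (right panel) within 1 kb of the start; labels give the count over the genes in the list, and the dashed line marks all protein-coding genes (18.1% and 5.97%). Integrated stress response genes stand highest for shared summits with 18 of 28, and immediate early and MAPK feedback genes for TGFB1-only summits with 15 of 26.

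ATF3 bound at its own gene and at the genes of its partners. Within 10 kb of ATF3 the TGFB1 list had 9 sites and the vehicle list 5. The strongest (chromosome 1, 212607984 to 212609307) lay 6.29 kb from the nearest tabled start and had 302 reads with TGFB1 and 203 reads in vehicle, with JUNB, SMAD2/3 and H3K27ac of the TGFB1 libraries on it. CEBPB, which encodes a C/EBP partner, had a shared summit 1.61 kb from its start with 239 reads with TGFB1 and 70 reads in vehicle. JUN had 111 reads with TGFB1 and 20 in vehicle at 0.058 kb, and JUND had 95 with TGFB1 and 22 in vehicle at 0.072 kb. JUNB differed from them, as its 6 TGFB1 sites were all TGFB1-only, each with SMAD2/3 and JUNB on it, and the highest, 8.37 kb from the start, had 48 reads. CEBPG, a C/EBP protein without an activation domain, had 2 TGFB1-only sites of 13 and 15 reads, and ATF4 had no TGFB1 site within 10 kb and 1 vehicle-only site of 7 reads. Over the 23 AP-1, ATF and CREB family genes, 8 had a shared summit at the start, beside 5.97% of all genes. A TGFB1-only start summit was at 6, or 26.1%, near the 25.5% of genes with acetylated starts and beside 18.1% of all genes. CREB5 led for start summits with 132 reads with TGFB1 and 32 in vehicle. JUN followed, and then JDP2, a repressor related to ATF3, with 109 with TGFB1 and 31 in vehicle.

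At their starts, TGF-beta targets and feedback genes had ATF3 mainly as TGFB1-only sites at moderate reads. Of 35 genes, 16 had a TGFB1-only summit at the start, beside 18.1% of all genes and 25.5% of those with acetylated starts. A shared summit was at 4 starts, beside 5.97% of all genes and 8.53% of those with acetylated starts. A vehicle-only summit was at 1, beside 4.06% of all genes. For TGFB1-only start summits, housekeeping genes stood at a like level with 9 of 20, and immediate early and MAPK feedback genes above it with 15 of 26. At 8 or more scaled reads a TGFB1-only start summit remained for 5 of 35 TGF-beta genes, 0 of 26 immediate early genes and 1 of 20 housekeeping genes, beside 0.901% of all genes. Within 10 kb, TGFB1-only summits reached 34 of the 35 TGF-beta genes, but 63.6% of all genes too. Shared summits reached 22 of the 35, beside 30.7% of all genes, and vehicle-only summits reached 18, beside 31.5% of all genes. In 15 of the 35 genes the highest start summit of the TGFB1 list was TGFB1-only, with 12 to 56 reads, and JUNB lay on 13 and SMAD2/3 on 9 of these. Over all 3661 TGFB1-only sites at gene starts the shares were 48.1% for JUNB and 14.2% for SMAD2/3.

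The inhibitors of the pathway were among the higher of these sites. SMAD7, which blocks the receptors, had a TGFB1-only summit of 53 reads 0.064 kb from its start (chromosome 18, 48942581 to 48942967, fold enrichment 14.7), on JUNB and SMAD2/3 peaks. SMAD6, SKIL and PMEPA1, 3 further inhibitors, had 37, 38 and 32 reads, each with JUNB and SMAD2/3. ID1, which in epithelial cells is repressed by SMAD3 together with ATF3, had 56 reads 0.890 kb from its start. CDKN1A, a cell-cycle inhibitor, had 24. No vehicle summit was called at the starts of these 6 genes. Within 10 kb each of them also had a shared site. At CDKN1A, SMAD7 and PMEPA1 the highest shared site had a TGFB1 -log10 p of 491, 148 and 72.8. Their highest TGFB1-only sites had 20.8, 49.5 and 28.3. In vehicle these 3 genes reached 257, 30.8 and 11.6. At SMAD6, SKIL and ID1 the shared site was below the TGFB1-only one. The shared start summits of the list with a vehicle summit there had 5 to 11 reads in vehicle. The median over all shared sites of the vehicle list was 10 reads. COL7A1, the anchoring collagen, had 65 reads with TGFB1 and 11 reads in vehicle. TGIF1, a corepressor, had 38 with TGFB1 and 11 in vehicle, and SNAI1, a repressor of epithelial genes, had 41 with TGFB1 and 5 in vehicle. In scaled reads the TGFB1 summits of COL7A1, TGIF1 and SNAI1 had 14.3, 8.38 and 9.05. That of TGIF1 was thus below its vehicle reads and those of COL7A1 and SNAI1 above theirs. Away from starts but within 10 kb, some shared sites were strong in vehicle too, as at CDKN1A and at TGFBI, where the highest vehicle -log10 p was 117. BHLHE40 had 29 reads with TGFB1 at its start and no vehicle summit there, since the vehicle peak it overlapped had its summit elsewhere. The receptor gene TGFBR2 had the TGFB1-only site of highest -log10 p of the list within 10 kb, with 58 reads inside the gene and 20.4 kb from its start.

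**Figure D4:**
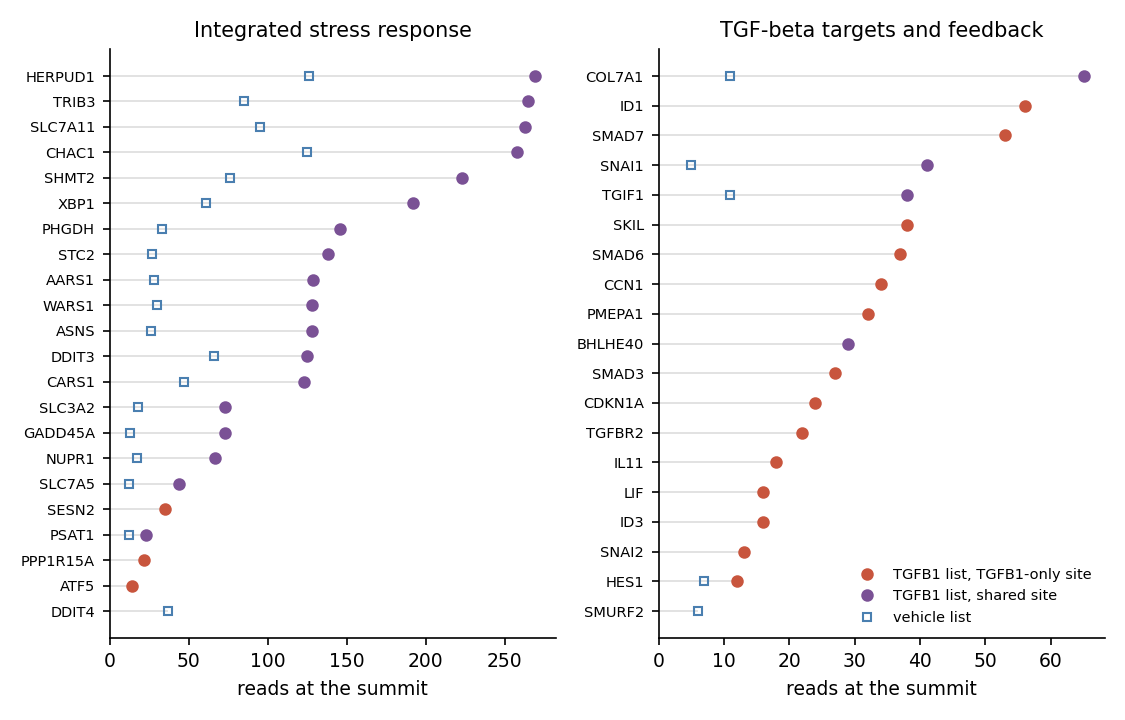
Reads at the highest ATF3 summit within 1 kb of the start (x axis) for each integrated stress response gene (left panel) and TGF-beta gene (right panel) that had one and is reported here; filled circles are the TGFB1 list, coloured by class of site, and open squares the vehicle list. HERPUD1, TRIB3, SLC7A11 and CHAC1 exceed 250 reads with TGFB1, while no TGF-beta gene exceeds 65. The x axes differ, and reads are not scaled for depth.

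The remaining lists ranged from above the share of all genes to below it. Immediate early and MAPK feedback genes had ATF3 at more of their starts than the TGF-beta genes did, and at higher reads where shared. Of these 26 genes 15 had a TGFB1-only summit, beside 18.1% of all genes and 25.5% of those with acetylated starts, and 6 had a shared summit, beside 5.97% of all genes and 8.53% of those with acetylated starts. The shared summits were led by SPRED2, an inhibitor of RAS signalling, with 189 reads with TGFB1 and 60 in vehicle, and by DUSP1, a MAPK phosphatase, with 80 with TGFB1 and 26 in vehicle. Where the highest start summit of such a gene was TGFB1-only, it had at most 29 reads, at DUSP6 and PHLDA2. Matrix and mesenchymal genes had 6 TGFB1-only and 3 shared start summits among 25 genes, or 24% and 12%, near the shares of genes with acetylated starts. The highest was at FN1, fibronectin, with 100 reads with TGFB1 and 9 in vehicle. COL1A1, the main chain of type I collagen, had the TGFB1-only site of highest -log10 p within 10 kb, with 67 reads 5.49 kb from its start. Pigment cell genes had 5 TGFB1-only and 1 shared start summit among 23 genes, or 21.7% and 4.35%, near the shares of all genes. Of these BCL2A1, a survival gene of the BCL2 family, had 41 reads and MITF 17 reads, both TGFB1-only. Lysosome genes had 8 TGFB1-only and 1 shared among 22, or 36.4% and 4.55%, and cytokine and NF-kappaB genes 7 TGFB1-only and 0 shared among 20. Genes of other cell types were near empty at their starts, with 1 TGFB1-only and 0 shared among 20. Vehicle H3K27ac lay at the starts of 4 of these 20. Genes without it at the start had a TGFB1-only summit there at 4.50% and a shared one at 1.28%, so the list was near that share.

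Taking each list by its 3 genes with the TGFB1-only sites of highest -log10 p within 10 kb, the highest reads were in the matrix, pigment and TGF-beta lists. COL1A1, LOX and COL5A1 had 67, 60 and 51 reads, TYRP1, MITF and BCL2A1 had 66, 42 and 41, and BHLHE40, TGFBR2 and SMAD7 had 63, 58 and 53. Among AP-1 family genes JUND, FOSL1 and CREB5 had 54, 45 and 39 reads. Among cytokine genes IL6, NFKB1 and CXCL2 had 53, 35 and 24. Immediate early genes IER2, DUSP5 and DUSP1 had 45, 40 and 35 reads, and stress response genes TRIB3, AARS1 and SESN2 had 43, 40 and 35. The lists meant as contrast lay in the same range as these, with 43, 39 and 33 reads at the housekeeping genes RPLP0, PPIA and HPRT1, 42, 37 and 33 reads at the lysosome genes TFEB, ATP6V1H and NPC1, and 46, 43 and 36 reads at PECAM1, TP63 and VWF, genes of other cell types.

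The TGFB1-only sites of highest -log10 p away from starts lay inside or outside genes of varied function. Sites outside genes are named by the nearest protein-coding gene, which need not be their target. The first of them, inside FOXP1, a forkhead repressor gene (chromosome 3, 71510857 to 71511417), had 130 reads, a fold enrichment of 40.4 and JUNB on it with TGFB1. MGAT4C, a glycosyltransferase gene, had 107 reads, CFAP58, a cilium gene, had 105, PDZD2 had 96, ME1, malic enzyme, had 88 and PRIMPOL, a primase-polymerase, had 82. The ME1 summit lay 1.005 kb from the start, just past the 1 kb limit for a gene start. Outside genes, the site nearest PEG10 had 102 reads, that nearest ELK3, an ETS factor, 104, that nearest ABI3BP 93 and that nearest ASAP1 92. They lay 27.8, 58.0, 75.7 and 59.7 kb from these genes. The PEG10 and ELK3 sites lay on JUNB, SMAD2/3 and H3K27ac peaks of the TGFB1 libraries. So did sites 25.7, 54.6, 24.2 and 98.5 kb from GOLGA6L2, IFFO2, PTGES and ADGB, with 82, 88, 84 and 68 reads. At starts the TGFB1-only sites of highest -log10 p were at H4C6, YJU2B, ZMAT1, ADGRG1, ZNF593 and KICS2 with 77, 86, 68, 100, 77 and 73 reads. H4C6 belongs to the histone gene family and GOLGA6L2 to a family of near-identical copies, and how the authors placed reads with several matches is not given in the sources used here. The shared start sites of highest -log10 p, at GZF1, EIF2S3, SLC7A11, KNL1, BCL6 and TRIB3, had 259 to 295 reads with TGFB1 and 85 to 165 in vehicle. Away from starts the shared sites of highest -log10 p lay 13.3, 40.0, 48.0 and 5.67 kb from KLHDC4, SPMIP10, HNRNPA3 and GLRX2. KLHDC4 had 306 reads with TGFB1 and 215 in vehicle, SPMIP10 296 with TGFB1 and 150 in vehicle, HNRNPA3 287 with TGFB1 and 109 in vehicle, and GLRX2 285 with TGFB1 and 133 in vehicle. EIF2S3 encodes a subunit of eIF2, the initiation factor through which the integrated stress response acts.

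Vehicle-only sites lay on acetylated chromatin less often than the shared sites of the vehicle list did. Their median was 7 reads, beside 10 at those shared sites, but the highest on acetylated chromatin had more. Among the vehicle-only sites of highest -log10 p on vehicle H3K27ac were those inside AHRR, HDAC4 and CSNK1G1, with 23, 14 and 13 reads. JUNB of either treatment lay on none of these. Of all 16287 vehicle-only sites, 8.92% (8.49 to 9.37%) lay on vehicle H3K27ac, against 30.9% (30.1 to 31.7%) of the 12834 shared sites of the vehicle list.

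Among the 4 motifs, C/EBP-CRE had the widest gap between TGFB1-only and shared promoters over all reads. RefSeq windows from 250 bases before to 50 bases after the start were available for 15711 of 19970 genes, 22011 windows of 300 bases in all. ATF3 summits of the TGFB1 list fell in 1811 windows, 1335 of them TGFB1-only and 476 shared, and vehicle-only summits in 137. C/EBP-CRE was in 2.32% (1.64 to 3.28%) of TGFB1-only windows, in 16.4% (13.3 to 19.98%) of shared windows, in 0 of 137 vehicle-only windows and in 0.650% of all windows. CRE was in 10.7% (9.16 to 12.5%) of TGFB1-only windows, 16.8% (13.7 to 20.4%) of shared windows, 5.84% (2.99 to 11.1%) of vehicle-only windows and 2.25% of all windows. C/EBP-ATF was in 1.35% (0.855 to 2.12%) of TGFB1-only windows, 6.09% (4.28 to 8.61%) of shared windows, 0.730% of vehicle-only windows and 0.663% of all windows. AP-1 went the other way, with 9.29% (7.85 to 11.0%) of TGFB1-only windows and 7.35% (5.33 to 10.1%) of shared windows, against 4.02% of all windows, but those intervals overlap. No window held matches of different motifs among these 4 that shared bases. A match describes letters in the window and does not show binding to them.

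Among shared windows C/EBP-CRE was more frequent the more reads the summit had, and shared sites had more reads, so the classes were compared within ranges of scaled reads. From 8 to 16 scaled reads it was in 2 of 67 TGFB1-only windows, or 2.99% (0.822 to 10.2%), and in 23 of 132 shared windows, or 17.4% (11.9 to 24.8%). From 4 to 8 the intervals overlapped, at 3.57% (2.18 to 5.81%) of 420 TGFB1-only windows and 8.70% (5.04 to 14.6%) of 138 shared windows. Below 4 it was in 1.66% (0.989 to 2.76%) of 845 TGFB1-only windows and in 0 of 77 shared windows (up to 4.75%). At 16 or more it was in 0 of 3 TGFB1-only windows and in 43 of 129 shared windows, or 33.3% (25.8 to 41.8%), too few TGFB1-only windows to compare. The intervals of the classes thus stood apart from 8 to 16 scaled reads alone. Overlapping intervals do not show that the shares are alike, and the difference from 4 to 8 was not tested. CRE from 8 to 16 was in 25.4% (16.5 to 36.9%) of TGFB1-only windows and in 21.97% (15.8 to 29.8%) of shared windows, which overlap. The 1811 windows with ATF3 had CRE at 12.3% and AP-1 at 8.78%, while the 2639 windows with a TGFB1 JUNB summit had CRE at 6.29% and AP-1 at 13.0%, and C/EBP-CRE at 1.25%. MITF windows with TGFB1 had the E-box CACGTG at 35.0%, against 11.9% of ATF3 windows and 8.32% of all windows. Motif and summit lay closest for C/EBP-CRE, with a median of 10.5 bp over 109 windows and 75.2% within 25 bp. The median distance was 15 bp for C/EBP-ATF over 47 windows, 18.5 bp for CRE over 223, 34 bp for AP-1 over 159 and 63 bp for the E-box over 216.

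**Figure D5:**
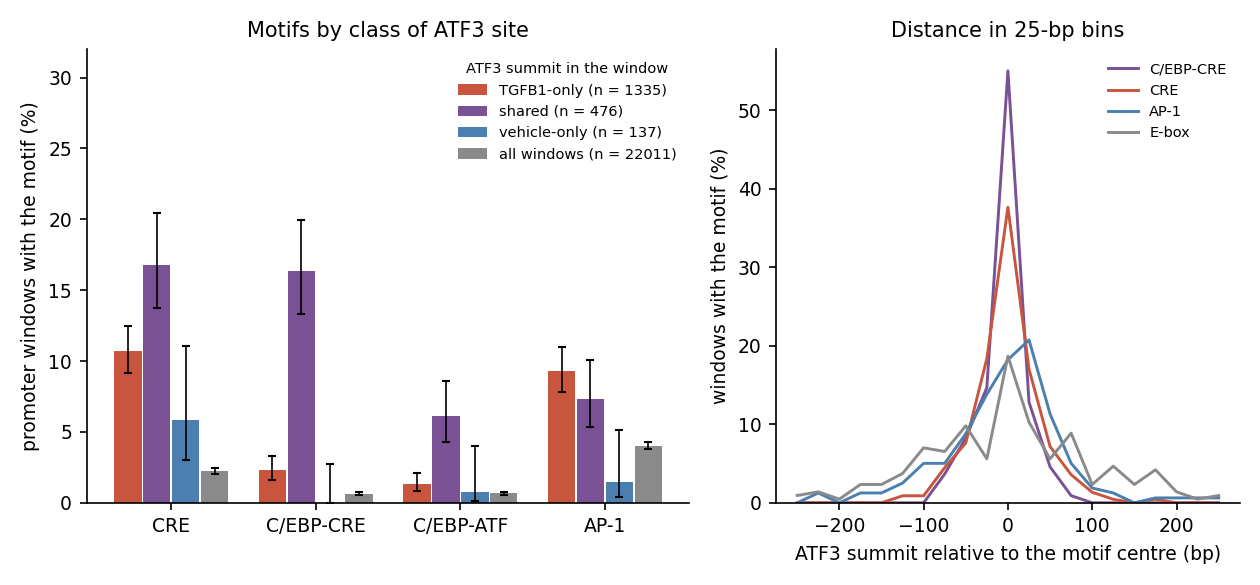
Left, percent of promoter windows with each of 4 motifs (y axis) by class of the ATF3 summit in the window, with 95% Wilson intervals, and in all windows. Right, distance of the TGFB1 ATF3 summit from the nearest motif centre in 25-bp bins (x axis, percent of windows with the motif on the y axis) for C/EBP-CRE, CRE, AP-1 and the E-box; C/EBP-CRE has the narrowest peak, with 75.2% of summits within 25 bp.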

How the data were processed

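ATF3 peak lists of A375 cells with TGFB1 and with vehicle were analysed, beside those of H3K27ac, SMAD2/3, MITF and JUNB. Inputs were not analysed here. Per the submitters' processing notes, Bowtie, MACS2 (version 2.0) and GRCh38 were used. Each list is of 1 library, per the labels, so no replicate spread exists. The fold enrichment ratio of each peak, its -log10 p and -log10 q and its score are the authors' deposited values. The score was not used. Which input served as control and how duplicate or multiply placed reads were handled is not given in the sources used here. Single-peak values describe, rank and filter peaks within their own list.

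Reads and background at each summit were recovered by finding the whole number of reads that gives both the deposited fold and -log10 p, with 1 added to each count (tolerance 0.01). This succeeded for all ATF3 peaks, though more than 1 whole number was possible for 0.338% of TGFB1 peaks and 8.93% of vehicle peaks. Overlaps, distances and recovered reads were tested on simulated data. Genes and promoter sequences were those of RefSeq (GRCh38.p14). For 4159 genes without a promoter window both gene ends stood in for the start, so the distances given for them are to the nearer end. Motifs were searched on both strands.

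The members, the gene lists and the motifs were chosen with earlier results of these data known. C/EBP-CRE, the scaled reads and the rule for printed sequences were added after the lists had been examined. Named sites are the 6 TGFB1-only at starts, 6 in gene bodies and 4 outside genes of highest -log10 p, the 6 shared at starts and 4 elsewhere, the 4 vehicle-only on vehicle H3K27ac, the 6 TGFB1-only with SMAD2/3, JUNB and H3K27ac, and ATF3 and its partner genes. From each list the 3 members with the strongest TGFB1-only summit within 10 kb are named too. Other members are named by their start summits and by known role, after their values were seen. Some genes that these rules name are not reported here. Python 3.11.15, pandas 2.3.3, numpy 2.4.6, scipy 1.17.1 and matplotlib 3.10.9 were used.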

Additional observations from a re-analysis of the deposited data

How the results depend on the processing

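With both lists at a -log10 q of at least 5, the ratio of TGFB1 to vehicle sites was 3.16, 20.2% of TGFB1 and 63.9% of vehicle sites were shared, H3K27ac lay on 27.6% of TGFB1-only and 9.41% of vehicle-only sites, 6.83% of TGFB1-only summits were at gene starts and 14.4% of ATF3 promoters held CRE. Reciprocal overlap of 50% gave 14.3% and 29.9% shared and 27.1% and 15.0% on H3K27ac. With gene-free stretches kept, the ratio was 1.28, 22.3% of TGFB1 and 28.6% of vehicle sites were shared, and 4.16% of vehicle-only sites were on H3K27ac. Leaving out sites over 100 kb from genes instead gave 45.7% of vehicle sites shared and 25.8% and 9.61% on H3K27ac. At equal list lengths 38.1% and 38.5% were shared, 27.9% and 10.8% lay on H3K27ac, 5.69% of TGFB1-only summits were at starts and 18.1% of promoters held CRE. Within 500 bp of a start lay 5.33% of TGFB1-only summits. At 8 or more scaled reads, an alternative chosen after seeing the data, 72.0% of TGFB1 sites were shared, 36.1% of TGFB1-only sites lay on H3K27ac and 5.83% of their summits at starts. Of the 240 listed genes 194 had a TGFB1-only summit within 10 kb and 80 at a start. The shared start summits of integrated stress response genes numbered 18 at the stricter threshold and at equal lengths, and 8 under reciprocal overlap, where 59 of 326 shared windows, or 18.1%, held C/EBP-CRE. The other 7 of the 36 alternatives for main results stayed within counting error or 1.5 times. No paired analysis was possible because each antibody and treatment had 1 library. Vehicle depth limits what can be said of TGFB1-only sites below 8 scaled reads.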

Other observations

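The genes that charge transfer RNAs with amino acids carried ATF3 at many of their starts in both treatments. The cytosolic and mitochondrial sets were listed after the sites had been seen, and 3 cytosolic members also stand in the integrated stress response list. A shared summit lay at 11 of 20 cytosolic synthetase genes and at 3 of 17 mitochondrial ones, beside 5.97% of all genes, and vehicle H3K27ac lay at the starts of all 20 and all 17. The 11 cytosolic summits had a median of 175 reads with TGFB1 (71 to 274) and 52 reads in vehicle (20 to 123). YARS1, the tyrosine enzyme, was the highest with 274 reads with TGFB1 and 123 in vehicle, followed by GARS1 with 258 with TGFB1 and 92 in vehicle, IARS1 with 243 with TGFB1 and 99 in vehicle and TARS1 with 230 with TGFB1 and 75 in vehicle. The 3 mitochondrial summits, at LARS2, NARS2 and YARS2, had 18, 29 and 39 reads with TGFB1. The vehicle start summits of LARS2 and NARS2 had 6 and 8 reads, while the vehicle start summit of YARS2, with 4 reads, was in a separate vehicle-only peak. The difference between the sets was not tested.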
